A study of Mus musculus with 4 samples.

Results

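Sorted Hic1 citrine+ cells of 3 hearts were compared with sorted PDGFRa H2BGFP+ cells of the 2 PDGFRa hearts in which the injury-response gene Postn was low, using single-cell RNA sequencing of mouse heart. Cells were members when they had at least 500 genes, at least 1000 UMIs (unique molecular identifiers, each a counted RNA molecule) and at most 10% mitochondrial UMIs. A member also had at least 10 hashtag counts, at least 80% of them from 1 hashtag, and fewer than 2 of the pericyte genes Rgs5, Kcnj8, Vtn and Colec11. These rules left 6919 cells of the 30454 that passed the first filters in the series. Citrine hearts 1, 2 and 3 gave 933, 2558 and 1771 cells, and PDGFRa hearts 3 and 4 gave 562 and 1095.

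Gene expression was captured on the 10x Chromium platform from 4 libraries, of which 2 were pools of hashed hearts and are used here. The citrine library held 3 undamaged hearts of C57BL/6 mice labelled Hic1 Citrine+. The PDGFRa library held 4 hearts of mice with the Pdgfra allele tm11(EGFP)Sor on C57BL/6, labelled PDGFRa H2BEGFP+: 2 were undamaged and 2 came from day 7 after ligation of the left anterior descending coronary artery. Age and sex are not in the labels, and the labels do not say which hashtag marked which PDGFRa heart. In that Pdgfra allele a nuclear green fluorescent reporter takes the place of Pdgfra coding sequence, and the number of copies the mice carried is not given. Reporter, strain and library all changed together between the groups, so their parts in any difference cannot be told apart. The PDGFRa hearts were chosen by their measured Postn level, which is therefore described and not tested. Postn stood at 203 and 288 CPM (UMI counts scaled to a common library total) in hearts 3 and 4, at 3632 and 3866 CPM in PDGFRa hearts 1 and 2, and at 335, 187 and 249 CPM in citrine hearts 1 to 3. Values of PDGFRa hearts 1 and 2 are given beside those of hearts 3 and 4 for the genes described by heart, because the choice rests on a measured gene.

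Cardiac fibroblasts and related mesenchymal cells build and maintain the collagen matrix of the heart and carry the receptor tyrosine kinase PDGFRa. HIC1 is a zinc finger repressor of transcription that marks quiescent mesenchymal progenitors in several tissues. Ly6a encodes the surface protein Sca1, used to mark progenitor-like fibroblasts, and Tcf21 encodes a transcription factor of the epicardium-derived fibroblast lineage.

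The 5 hearts gave between 3758342 and 21090629 UMIs from member cells, with medians of 6435 to 7614 UMIs per cell. PDGFRa hearts 1 and 2 were deeper, with medians of 10924 and 10751. Of the cells that passed the first filters, 48.5% in the citrine library and 42.0% in the PDGFRa library carried no single hashtag and were left out. Barcodes of 3 members in the citrine group also occurred among members of the PDGFRa pair. The pericyte rule removed 3.81%, 8.38% and 2.48% of the assigned cells of citrine hearts 1, 2 and 3, and 1.23% and 1.88% of PDGFRa hearts 3 and 4. The 16 fibroblast markers summed to between 62499 and 69857 CPM in the citrine hearts and to 62968 and 60915 CPM in the PDGFRa pair. Summed markers of lymphocytes and neutrophils stayed under 1 CPM in all 5 hearts. Smooth muscle markers summed to 151 to 244 CPM in the citrine hearts and 86.9 to 118 in the PDGFRa pair, but to 638 and 641 in PDGFRa hearts 1 and 2. Endothelial markers summed to 138 to 199 CPM against 120 to 127, and macrophage markers to 13.6 to 40.3 against 7.98 to 10.2. Cardiomyocyte markers summed to 39.1 to 48.4 CPM against 23.1 to 27.1. PDGFRa hearts 1 and 2 were at 90.3 and 102, 9.60 and 10.4, and 15.1 and 21.1 CPM for these 3 sums. In the test between the groups, 1 of 4 endothelial genes was called higher and 1 lower. Of 3 macrophage genes 1 was called higher, and of 7 cardiomyocyte genes none was called, beside 21.3% of all tested genes. Schwann markers were at 24.2 to 39.9 CPM against 33.0 and 36.2. Epicardial markers stood apart in 1 heart, at 38.7 CPM in citrine heart 1 against 0.332 and 4.66 in citrine hearts 2 and 3 and 0.266 and 0.794 in the PDGFRa pair, with 5.43 and 9.30 in PDGFRa hearts 1 and 2. Gm42418, a predicted gene that overlaps ribosomal RNA sequence, was at 3738 to 4277 CPM in the citrine hearts and at 6138 and 6456 CPM in the PDGFRa pair, with 5391 and 5752 in PDGFRa hearts 1 and 2. The part of these differences in the results below was not tested. Xist was at or below 0.271 CPM in all 7 hearts. The PDGFRa reporter feature was at 45.2 and 42.6 CPM in PDGFRa hearts 3 and 4, at 28.2 and 27.5 in hearts 1 and 2, and at 2.04 to 2.17 in the citrine hearts.

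The citrine hearts were not alike in a short stretch of chromosome 9. In hearts 1 and 3, but not in heart 2, a row of neighbouring genes was raised. Imp3, which encodes a protein of ribosomal RNA processing (chr9:56937475-56938398, GRCm38), stood at 1210, 178 and 1222 CPM in citrine hearts 1, 2 and 3. It stood at 141 and 131 CPM in the PDGFRa pair and at 96.9 and 90.9 in PDGFRa hearts 1 and 2. Snx33 (chr9:56917193-56928371), Snupn (chr9:56950878-56983206), Cspg4 (chr9:56865033-56899870) and Ptpn9 (chr9:56994923-57062807) showed the same split. Hearts 1 and 3 averaged 5.80, 7.10, 7.67 and 2.02 times the level of heart 2 for these genes, and 6.83 times for Imp3. Sin3a and Man2c1, which lie beyond Ptpn9, did not, at 0.882 and 1.07 times. Of 8350 genes compared, 6 differed at least 2-fold between heart 2 and the mean of hearts 1 and 3. Only genes for which hearts 1 and 3 were close to each other could be counted. Of the 6, 4 lay in this stretch, and the others were Cxcl10 and Fhl2. Cspg4 was left out of the count because hearts 1 and 3 differed too much from each other (10.9 and 16.8 CPM). All 3 citrine hearts carry 1 genotype label, and what sets hearts 1 and 3 apart was not tested. Snx33, Imp3 and Snupn passed the test between the groups, at log2 fold changes of 2.76, 2.68 and 2.66, and these differences were mainly those of hearts 1 and 3. Without PDGFRa heart 4 their adjusted p values were 0.173, 0.148 and 0.231.

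**Figure D1:**
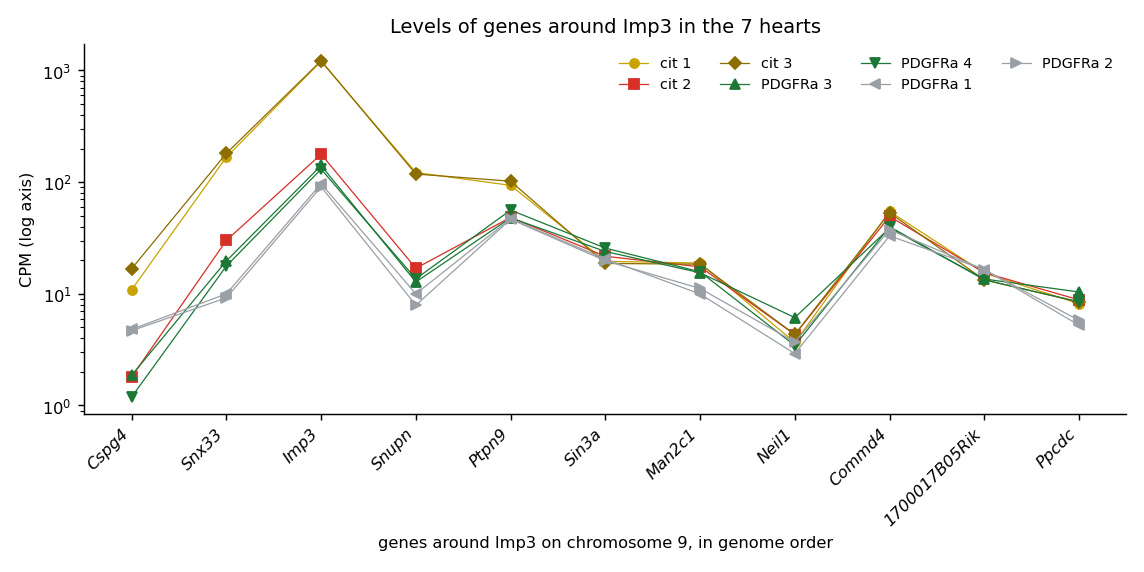
CPM on a log axis of genes around Imp3 on chromosome 9 from Cspg4 onward, in genome order, with 1 line per heart (citrine gold, red and brown, PDGFRa hearts 3 and 4 green, PDGFRa hearts 1 and 2 grey). From Cspg4 to Ptpn9 citrine hearts 1 and 3 lie above citrine heart 2, which runs with the PDGFRa hearts; at Imp3 the values are 1210 and 1222 against 178 CPM.

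Hic1 itself set the groups apart more widely than any other marker. Hic1 (chr11:75164565-75169519) was at 330, 292 and 320 CPM in citrine hearts 1, 2 and 3 and at 37.5 and 38.2 CPM in PDGFRa hearts 3 and 4. PDGFRa hearts 1 and 2 held 28.5 and 22.9 CPM, so every citrine heart was above all 4 PDGFRa hearts. The difference was 8.26-fold, a log2 fold change of 3.05 ± 0.11 (approximate SE, 3 hearts against 2), with an adjusted p of 5.5e-07 in edgeR's quasi-likelihood test over all genes. The citrine cells were sorted on a reporter of Hic1, and the sort and the reporter allele cannot be told apart.

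Pdgfra, the gene whose reporter sorted the other group, was also higher in the citrine hearts. It stood at 322, 387 and 338 CPM there, at 180 and 187 CPM in PDGFRa hearts 3 and 4, and at 90.1 and 97.7 CPM in hearts 1 and 2. The difference was 1.90-fold (log2 0.93 ± 0.10, adjusted p = 0.00051). Within 5 Mb of Pdgfra, 8 of 31 tested genes passed the test, 2 higher and 6 lower. That is 25.8%, beside 21.3% of all tested genes. Of the other 3 tested PDGF receptors and ligands none passed: Pdgfrb, the sister receptor, was at 80.1, 90.7 and 82.9 CPM against 79.0 and 80.5, with 72.0 and 77.5 in PDGFRa hearts 1 and 2.

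Tcf21 and Ly6a were higher in the citrine hearts as well. Tcf21 was at 675, 585 and 569 CPM in the citrine hearts, at 444 and 332 CPM in the PDGFRa pair and at 274 and 273 CPM in PDGFRa hearts 1 and 2 (log2 0.65 ± 0.14, adjusted p = 0.010). Its call was lost without PDGFRa heart 4 (log2 0.45, adjusted p = 0.097). Ly6a was at 1227, 955 and 1280 CPM against 650 and 626, with 338 and 339 CPM in PDGFRa hearts 1 and 2 (log2 0.85 ± 0.13, adjusted p = 0.0029). Part of the Ly6a signal is uncertain, because 29.2% of the 31-base words in its last 300 transcript bases also occur in transcripts of other genes. For all 4 markers every citrine heart lay above every PDGFRa heart, as for 1021 of all 1163 higher calls.

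**Figure D2:**
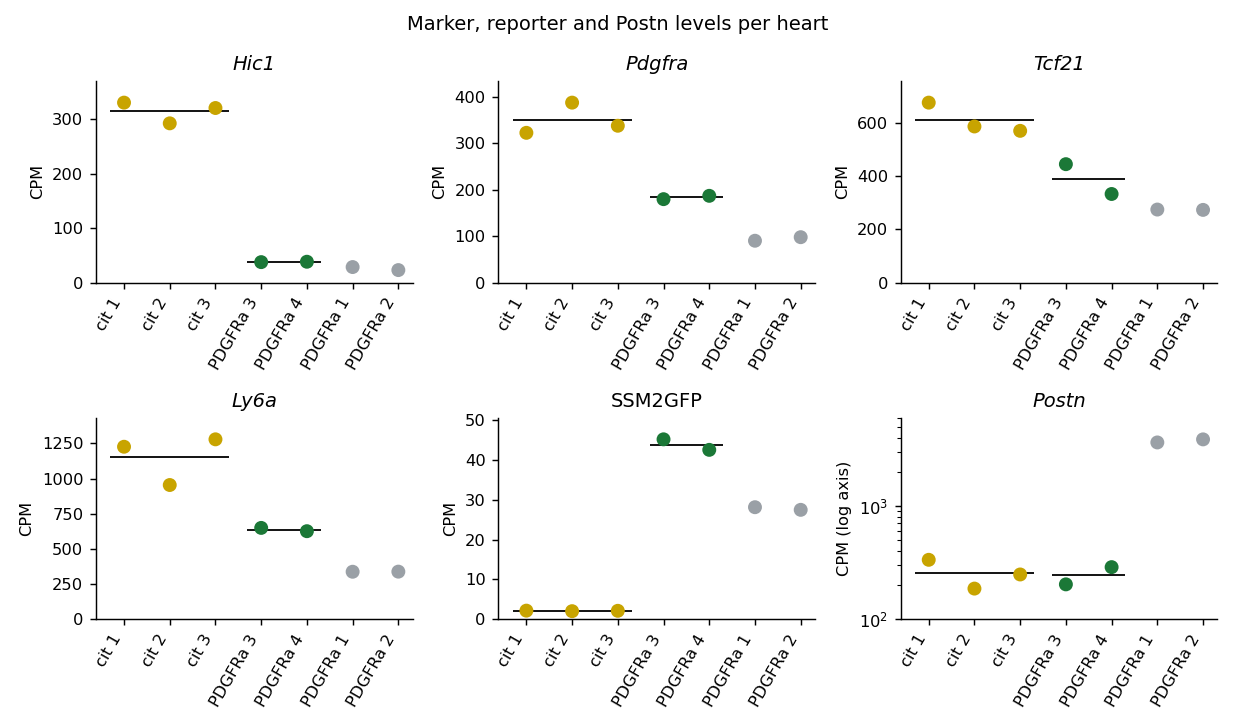
CPM per heart of the 4 markers, the PDGFRa reporter feature (SSM2GFP) and Postn, which has a log axis; points are hearts (citrine gold, PDGFRa hearts 3 and 4 green, hearts 1 and 2 grey) and lines are the means of the compared groups. Hic1 stands at 292 to 330 CPM in the citrine hearts and at or below 38.2 CPM in all PDGFRa hearts, while Postn separates PDGFRa hearts 1 and 2 from all others.

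The marker differences were also visible as shares of cells, here with every cell thinned to 2000 UMIs. A Hic1 UMI was found in 44.9%, 43.3% and 44.3% of cells of citrine hearts 1, 2 and 3, and in 7.59% and 7.16% of PDGFRa hearts 3 and 4, with 6.81% and 4.81% in PDGFRa hearts 1 and 2. Exact 95% binomial intervals ran from 41.4% to 48.2% over the citrine hearts and from 5.53% to 10.1% over the PDGFRa pair, and cover counting error only. Unthinned, the means were 81.1% and 20.8%. The share with a Pdgfra UMI was 46.7% ± 1.71 (SD, n = 3) in the citrine hearts against 31.8% and 30.5% in the PDGFRa pair. For Tcf21 it was 64.3% ± 1.76 against 48.3% ± 7.68, and for Ly6a 65.3% ± 3.11 against 42.2% ± 4.90, both thinned; unthinned, the means were 81.6% and 63.0% for Pdgfra, 91.7% and 81.4% for Tcf21 and 82.5% and 59.9% for Ly6a. As a reference, 198 cells of the citrine library with at least 3 of the 4 pericyte genes (median 4234 UMIs) gave a Pdgfra UMI in 14.1%, a Tcf21 UMI in 39.4%, a Ly6a UMI in 20.7% and a Hic1 UMI in 55.1%, after the same thinning. The PDGFRa library held 12 such cells (median 7363 UMIs), with a Hic1 UMI in 0 of them, which allows a share of up to 26.5% (exact interval). More cells with a transcript and more transcript per cell cannot be told apart from these sums and shares.

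Across all genes 2524 of 11863 tested passed at an adjusted p under 0.05, which is 21.3%. In the citrine hearts 1163 were higher (9.8%) and 1361 lower (11.5%), and the median log2 fold change over all genes was 0.0052. At an unadjusted p under 0.05, 4256 genes passed (35.9%). At least a 2-fold difference was held by 400 genes (3.37%), 282 higher (2.38%) and 118 lower (0.995%). Whatever the test gave, the citrine hearts lay above all 4 PDGFRa hearts for 21.6% of the tested genes and below all 4 for 13.5%. The citrine hearts lay beyond all 4 PDGFRa hearts for 1021 of the 1163 higher calls and 935 of the 1361 lower calls. These are 8.61% and 7.88% of all tested genes, and most calls in either direction lay beyond all 4. With all 4 PDGFRa hearts in the fit 2748 of 12609 genes (21.8%) passed, and 1776 were called in the same direction by both fits, 70.4% of the first set and 64.6% of the second. PDGFRa heart 4 carried many of the calls: without it 715 genes passed, 212 of them at least 2-fold apart, and without citrine heart 3 1407 passed. Hearts assigned on a hashtag share of at least 95% gave 770.

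Many of the largest positive differences fell on genes with near copies elsewhere in the genome. At least 20% of the 31-base words of the last 300 transcript bases were shared with another gene in 30.2% of the genes at least 2-fold higher in the citrine hearts (84 of 278), in 5.98% of those at least 2-fold lower and in 8.19% of all tested genes. Counts of such genes depend on how reads that match several places were assigned, and that part in the differences was not tested.

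**Figure D3:**
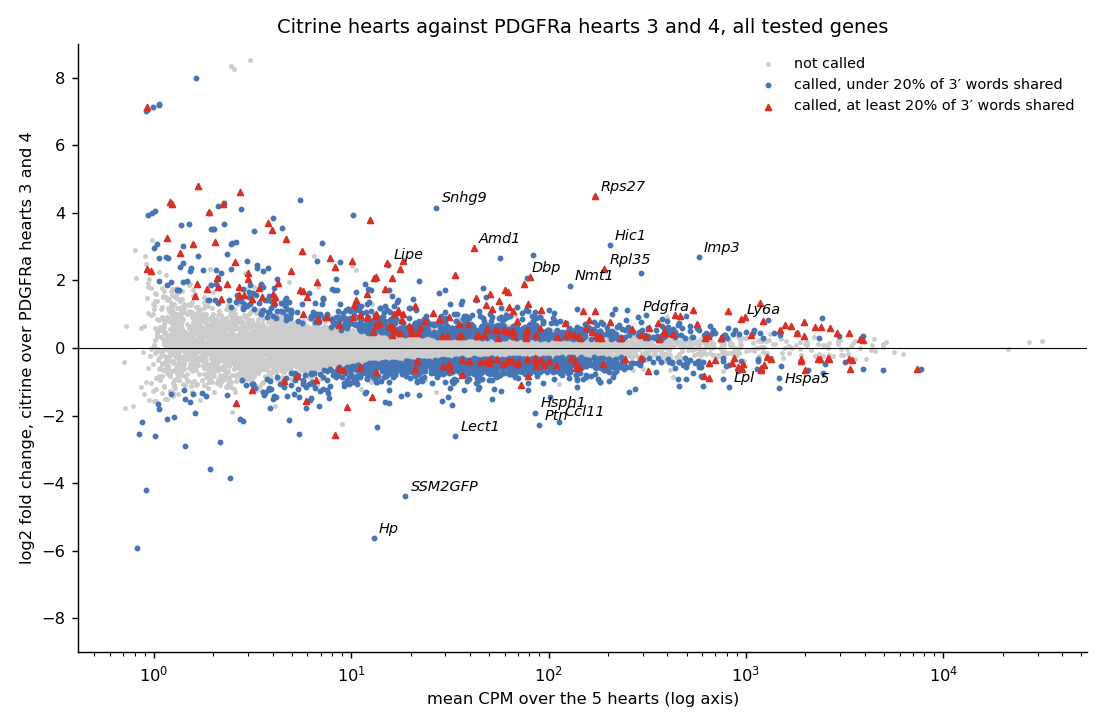
Log2 fold change of citrine hearts over PDGFRa hearts 3 and 4 against mean CPM of the 5 hearts (log axis) for all 11863 tested genes, called genes in blue or, where at least 20% of 3′ words are shared with other genes, as red triangles. Hic1 (3.05) and Snhg9 (4.15) lead the well expressed genes without shared words, Hp (-5.62) is the lowest among them, and the points above 6.5 are genes without a UMI in the PDGFRa pair.

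Besides Hic1, well expressed genes with large differences included Snhg9, Lipe, Dbp and Nmt1 above and Hp, Lect1 and Ptn below. These genes share no 3′ words with other genes, and each citrine heart lay beyond all 4 PDGFRa hearts. Snhg9, a noncoding host gene of a small nucleolar RNA, was at 45.3, 41.9 and 42.6 CPM in the citrine hearts, at 3.46 and 1.85 CPM in the PDGFRa pair and at 1.69 and 2.06 in PDGFRa hearts 1 and 2. The difference was 17.8-fold (log2 4.15 ± 0.20, adjusted p = 5.9e-06). The annotation gives Snhg9 as an antisense gene, and whether strand was used in counting is not given in the sources used here. Nmt1, an N-myristoyltransferase, was even between hearts: 188, 176 and 176 CPM against 48.4 and 51.4, with 43.0 and 43.4 in PDGFRa hearts 1 and 2 (log2 1.84 ± 0.09).

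Lipe, hormone-sensitive lipase, stood at 21.03, 28.6 and 18.6 CPM in the citrine hearts and at 5.85 and 3.17 CPM in the PDGFRa pair (log2 2.47 ± 0.29, adjusted p = 0.0010). PDGFRa hearts 1 and 2 were lower still, at 2.16 and 3.21 CPM. Amd1, Hmgn2, Stmn1 and Adrm1 were also among the 12 largest positive differences, at log2 2.95, 2.59, 2.52 and 2.06, but shared 83.1%, 56.8%, 35.1% and 33.9% of their 3′ words with other genes. Stmn1 lost its call without PDGFRa heart 4 (adjusted p = 0.051).

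Hp, which encodes the haemoglobin-binding protein haptoglobin, was nearly absent from the citrine cells. It gave 2, 20 and 5 UMIs in citrine hearts 1, 2 and 3, or 0.271, 0.948 and 0.333 CPM, against 172 and 134 UMIs, or 45.8 and 17.7 CPM, in the PDGFRa pair. PDGFRa hearts 1 and 2 held 86.0 and 48.4 CPM, so the groups did not overlap, although PDGFRa hearts differed among themselves. Hp could enter the test only through the PDGFRa pair, so its log2 fold change of -5.62 ± 0.49 is a description. Lect1, also called chondromodulin, was at 11.4, 12.8 and 8.58 CPM against 82.2 and 53.8, and at 28.2 and 20.6 in PDGFRa hearts 1 and 2 (log2 -2.62 ± 0.20). Ptn, the growth factor pleiotrophin, was at 46.5, 22.5 and 39.3 CPM against 160 and 181 (log2 -2.28 ± 0.24, adjusted p = 0.00051). In PDGFRa hearts 1 and 2 Ptn reached 2416 and 2215 CPM, so the PDGFRa pair lay between the citrine hearts and the PDGFRa hearts with high Postn.

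The other genes with large negative differences included several known for stress and growth arrest. Hsph1 (log2 -1.92) and Hspa4l (-1.68) encode chaperones of the HSP110 family, Cdkn1a (-1.31) a cell cycle inhibitor, and Ddit3 (-1.24) and Ddit4 (-1.23) stress-induced regulators. For each, PDGFRa heart 4 was well above heart 3: Cdkn1a was at 182, 154 and 148 CPM in the citrine hearts and at 266 and 528 CPM in PDGFRa hearts 3 and 4, with 399.99 and 396 in hearts 1 and 2. Hspa4l was at 19.5, 16.9 and 17.2 against 28.2 and 79.6, with 25.5 and 20.5 in hearts 1 and 2. Without PDGFRa heart 4 Hspa4l, Ddit3 and Ddit4 did not pass, at log2 -0.69, -0.56 and -0.49 (adjusted p = 0.051, 0.071 and 0.067), while Cdkn1a and Hsph1 kept their calls without any 1 heart. Angptl1 (-1.50), an angiopoietin-like secreted protein, and Dio2 (-1.42), the deiodinase that activates thyroid hormone, completed the group with Hist1h4d (-2.33) and Nfil3.

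**Figure D4:**
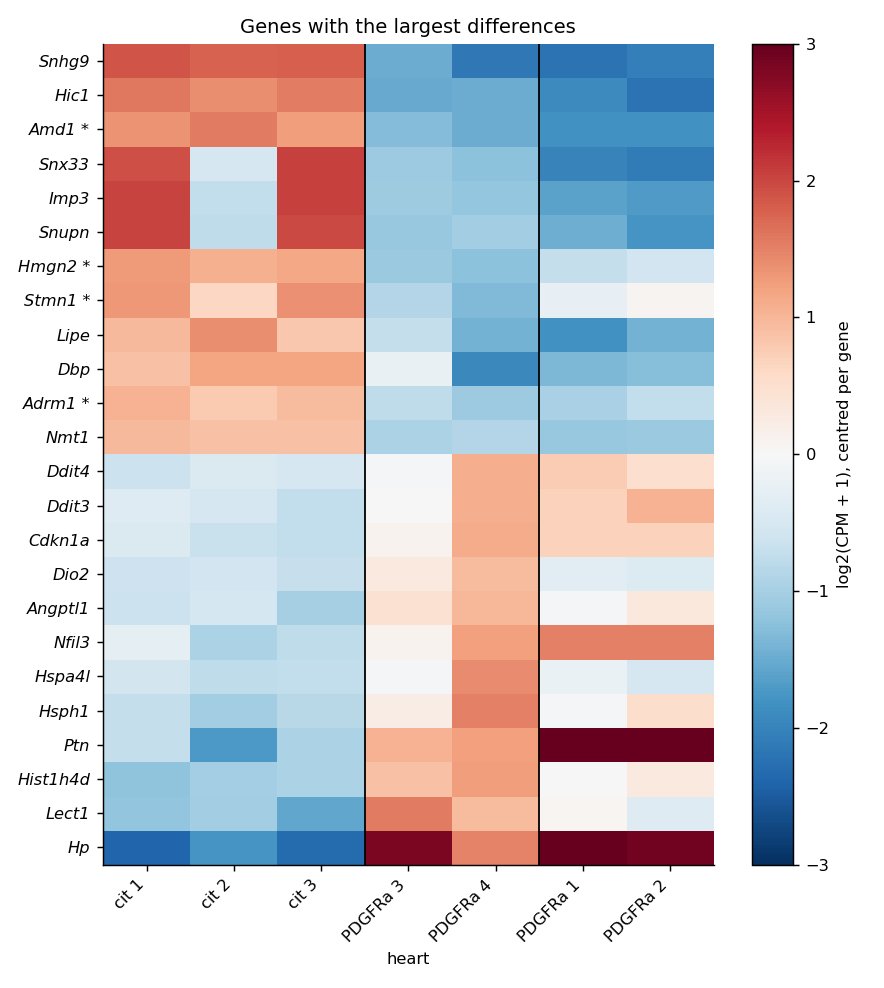
Heat map of log2(CPM + 1) per heart, centred for each gene on the midpoint of the citrine and PDGFRa pair means, for the 12 largest positive and 12 largest negative differences; an asterisk marks genes sharing at least 20% of 3′ words, and values beyond ±3 (Ptn in PDGFRa hearts 1 and 2, Hp in PDGFRa heart 1) take the end colour. Snx33, Imp3 and Snupn are high in citrine hearts 1 and 3 only, and Cdkn1a (266 and 528 CPM) and Hspa4l (28.2 and 79.6 CPM) differ between PDGFRa hearts 3 and 4.

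Circadian clock genes were looked at together after the values of Dbp and Per3 had been seen, so their count is a description. The clock is a feedback loop in which CLOCK or NPAS2 with ARNTL drive genes such as Per, Cry, Dbp and Nr1d, and DBP, TEF and HLF compete with the repressor NFIL3 at D-box sites. Of 16 tested clock genes 5 were higher in the citrine hearts (Dbp, Per3, Bhlhe41, Tef and Nr1d2), 5 lower (Nfil3, Cry1, Npas2, Arntl and Clock) and 6 not called. Over all tested genes 9.8% were called higher and 11.5% lower. The citrine hearts lay above all 4 PDGFRa hearts for the 5 higher genes, but below all 4 for only 2 lower ones, Nfil3 and Arntl. Over all calls this held for 1021 of the 1163 higher and 935 of the 1361 lower ones. Cry1 overlapped the PDGFRa pair itself (8.28 CPM in citrine heart 1, 7.98 in PDGFRa heart 3), and Clock overlapped PDGFRa hearts 1 and 2. Dbp was at 94.98, 118 and 117 CPM against 43.9 and 12.8, with 19.6 and 20.6 in PDGFRa hearts 1 and 2 (log2 2.09 ± 0.37, adjusted p = 0.0049). With 1 heart left out, the log2 fold change of Dbp ran from 1.32 to 3.10. Per3 was at 41.1, 34.9 and 38.5 CPM against 14.1 and 10.98, with 12.2 and 12.3 in the others (log2 1.63 ± 0.15, adjusted p = 0.00025). Bhlhe41, a repressor of the loop, was at 46.4, 46.3 and 52.8 CPM against 17.6 and 18.9, but at 42.5 and 39.7 in PDGFRa hearts 1 and 2. In the opposite direction, Npas2 was at 13.6, 16.8 and 12.8 CPM against 25.3 and 26.3 (log2 -0.84 ± 0.14), but PDGFRa hearts 1 and 2, at 14.0 and 14.1 CPM, lay within the citrine range. Arntl was at 28.2, 25.0 and 25.3 CPM against 30.1 and 51.3, with 44.1 and 41.8 in PDGFRa hearts 1 and 2 (-0.69 ± 0.18). Nfil3 was at 22.1, 13.6 and 15.5 CPM against 29.0 and 64.5, with 79.5 and 78.3 in PDGFRa hearts 1 and 2 (-1.56 ± 0.29), and lost its call without PDGFRa heart 4 (log2 -0.83, adjusted p = 0.12). PDGFRa hearts 3 and 4 were themselves apart for Dbp, Nfil3 and Nr1d1, the last at 65.5 and 24.2 CPM (32.0 and 35.2 in hearts 1 and 2). The times of day at which the hearts were taken are not in the labels.

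The promoters of Per3 and Bhlhe41 are shown because both genes were higher in the citrine hearts and their promoters hold letters known as clock motifs. They come from RefSeq on GRCm38.p6 and span 300 bases around the start, 5′ to 3′. Capitals mark the D-box TTATGTAA in Per3 (chr4:151044616-151044915, minus strand) and the E-box CACGTG in Bhlhe41 (chr6:145865371-145865670, minus strand).
Per3: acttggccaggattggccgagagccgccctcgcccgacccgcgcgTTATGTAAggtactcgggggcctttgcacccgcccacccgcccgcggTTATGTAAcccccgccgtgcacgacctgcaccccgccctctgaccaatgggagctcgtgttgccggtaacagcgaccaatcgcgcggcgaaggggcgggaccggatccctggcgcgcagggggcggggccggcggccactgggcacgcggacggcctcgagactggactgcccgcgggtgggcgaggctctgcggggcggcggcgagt
Bhlhe41: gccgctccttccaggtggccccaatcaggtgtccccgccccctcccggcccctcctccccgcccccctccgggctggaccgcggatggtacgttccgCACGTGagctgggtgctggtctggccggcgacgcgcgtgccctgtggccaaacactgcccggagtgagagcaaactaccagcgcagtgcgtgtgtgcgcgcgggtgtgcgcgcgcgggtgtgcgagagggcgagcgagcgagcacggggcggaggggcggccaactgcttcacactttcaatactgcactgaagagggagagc
Both motifs were searched on both strands, and they share no overlap. Of 15 clock genes with an entry, 5 held CACGTG and 1 held TTATGTAA. A gene was counted if any of its promoters held the motif. Of all 32851 promoters, counted singly, 7.15% and 0.938% held them, so these shares are not a matched background. Among the genes with CACGTG, Bhlhe41 and Tef were higher in the citrine hearts, Cry1 was lower and Per1 was not called. Ciart also held CACGTG and was not tested between the groups. A link between motif and direction was not tested. A match is a string of letters and not a measured site.

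Of 18 genes of Sca1-high progenitor-like fibroblasts 8 were higher in the citrine hearts and none was lower, with a median log2 fold change of 0.44 beside 0.0052 over all genes. Over all tested genes 9.8% were called higher and 11.5% lower, and these shares stand beside every list count that follows. The 8 were Ly6a, Sema3c (0.90, a secreted semaphorin), Pi16 (0.84, a peptidase inhibitor), Ackr3 (0.74, a chemokine scavenger receptor), Cd248 (0.67, endosialin), Uchl1 (0.60, a ubiquitin hydrolase), Cd34 (0.40) and Timp2 (0.28, a protease inhibitor). Pi16 was at 1473, 1256 and 1976 CPM in the citrine hearts and at 859 and 891 CPM in the PDGFRa pair, with 374 and 433 in PDGFRa hearts 1 and 2. The citrine hearts lay above all 4 PDGFRa hearts for 1021 of all 1163 higher calls, and for all 8 of these genes. Without PDGFRa heart 4, 2 of them (Ly6a and Ackr3) passed, and without citrine heart 3, 4 did. At least 3 of the list's genes were seen in 84.1%, 85.7% and 87.7% of thinned citrine cells and in 74.3% and 77.6% of cells of the PDGFRa pair, a share of cells with these RNAs and not a cell class.

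Of 16 pan-fibroblast markers 4 were higher (Pdgfra, Tcf21, Fbln1 at 0.54 and Vim at 0.36) and none was lower, with a median of 0.20. Only Pdgfra was called without PDGFRa heart 4. Of 18 markers of resting cardiac fibroblasts 12 were not called, 5 were lower in the citrine hearts and 1, the serine protease Htra3, was higher (0.46), with a median of -0.03. The number lower was 3 without PDGFRa heart 4. The lower ones were the complement component C7, lipoprotein lipase Lpl, the methyltransferase Inmt (-0.92), the calcification inhibitor Mgp (-0.63) and the steroid enzyme Hsd11b1 (-0.42). C7 was at 76.1, 56.4 and 51.2 CPM against 136 and 191 (log2 -1.44 ± 0.18, adjusted p = 0.0012), but PDGFRa hearts 1 and 2 held 38.3 and 39.3 CPM, below the citrine hearts. Lpl was at 525, 653 and 472 CPM against 1098 and 1337 (-1.15 ± 0.13, adjusted p = 0.00081), with 613 and 666 CPM in PDGFRa hearts 1 and 2, which overlapped the citrine hearts. Of these 5 genes only Mgp was below all 4 PDGFRa hearts in every citrine heart; Inmt and Hsd11b1, as C7, were lower in PDGFRa hearts 1 and 2 than in every citrine heart.

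Activation genes were divided. Of 19 counted members besides Postn, 4 were higher and 5 lower, with a median of -0.44. The lower ones were Ptn, the transcription factor Runx1 (-1.05), the collagen crosslinker Lox (-0.61), Ddah1 (-1.19) and the surface protease Fap (-0.75). In all 5 the citrine hearts were below all 4 PDGFRa hearts, as for 935 of all 1361 lower calls. Ddah1 lost its call without PDGFRa heart 4, and its log2 fold change ran from -1.36 to -1.08 with 1 heart left out. Lox was at 27.0, 27.6 and 28.7 CPM in the citrine hearts, 45.5 and 39.9 in the PDGFRa pair and 416 and 422 in PDGFRa hearts 1 and 2. The higher ones were Acta2, smooth muscle actin (1.41), Tgfb1 (0.79), Mfap4 (0.78) and the TGF-beta binding protein Ltbp2 (0.39). Acta2 was at 49.8, 41.8 and 78.3 CPM against 28.7 and 16.1, with 135 and 167 CPM in PDGFRa hearts 1 and 2, and its difference did not pass without PDGFRa heart 4 (log2 0.97, adjusted p = 0.17). Mfap4 and Ltbp2 lost their calls without it too, which left 1 higher gene of the 4. Acta2, Tgfb1, Mfap4 and Ltbp2 were not above all 4 PDGFRa hearts. With all 4 PDGFRa hearts in the fit Acta2 (-0.80) and Mfap4 (-0.82) changed sign without passing. Cthrc1, a collagen triple helix protein of injury fibroblasts, was at 3.66, 7.68 and 11.6 CPM in the citrine hearts, 11.7 and 16.1 in the PDGFRa pair and 884 and 1134 in PDGFRa hearts 1 and 2.

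Matrix genes were called in both directions. None of the 14 basement membrane genes passed, although 2 passed after thinning, and Nid1 (nidogen) and Lamc1 (a laminin chain) had log2 fold changes of -0.22 ± 0.10 and -0.09 ± 0.08. Among 10 small leucine-rich proteoglycans, which bind collagen fibrils, 4 were lower (Ogn, Podn, Ecm2 and Aspn) and Bgn was higher (0.30). Ogn, osteoglycin, was at 1144, 1120 and 1042 CPM against 2023 and 2062, with 1489 and 1674 in PDGFRa hearts 1 and 2 (-0.89 ± 0.08, adjusted p = 0.00021), and kept its call without any 1 heart. Of 15 fibrillar collagen and elastic fibre genes, Fbn2 (-2.13, at 2.86 CPM or less in the citrine hearts) and Col5a3 (-0.78) were lower, and Mfap4 (0.78), Mfap2 (0.53) and Fbln5 (0.41) were higher. Of 14 genes of collagen processing, the procollagen peptidase Bmp1 (0.74) and its enhancer Pcolce (0.41) were higher, and the prolyl hydroxylase P4ha1 (-0.995), the lysyl hydroxylase Plod2 (-0.66) and Lox were lower. P4ha1 was at 134, 130 and 128 CPM against 208 and 310, with 183 and 156 in PDGFRa hearts 1 and 2. Bgn, Podn, Ecm2, Aspn, Mfap4, Mfap2, Fbln5, Pcolce and Plod2 lost their calls without PDGFRa heart 4. Among the called proteoglycans only Ogn kept its call there, and no higher elastic fibre gene did. Among 18 matrix proteases and inhibitors Adamts2, Mmp23 and Timp2 were higher and Adamts4 and Adamts9 lower, and all 5 lost their calls without PDGFRa heart 4.

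**Figure D5:**
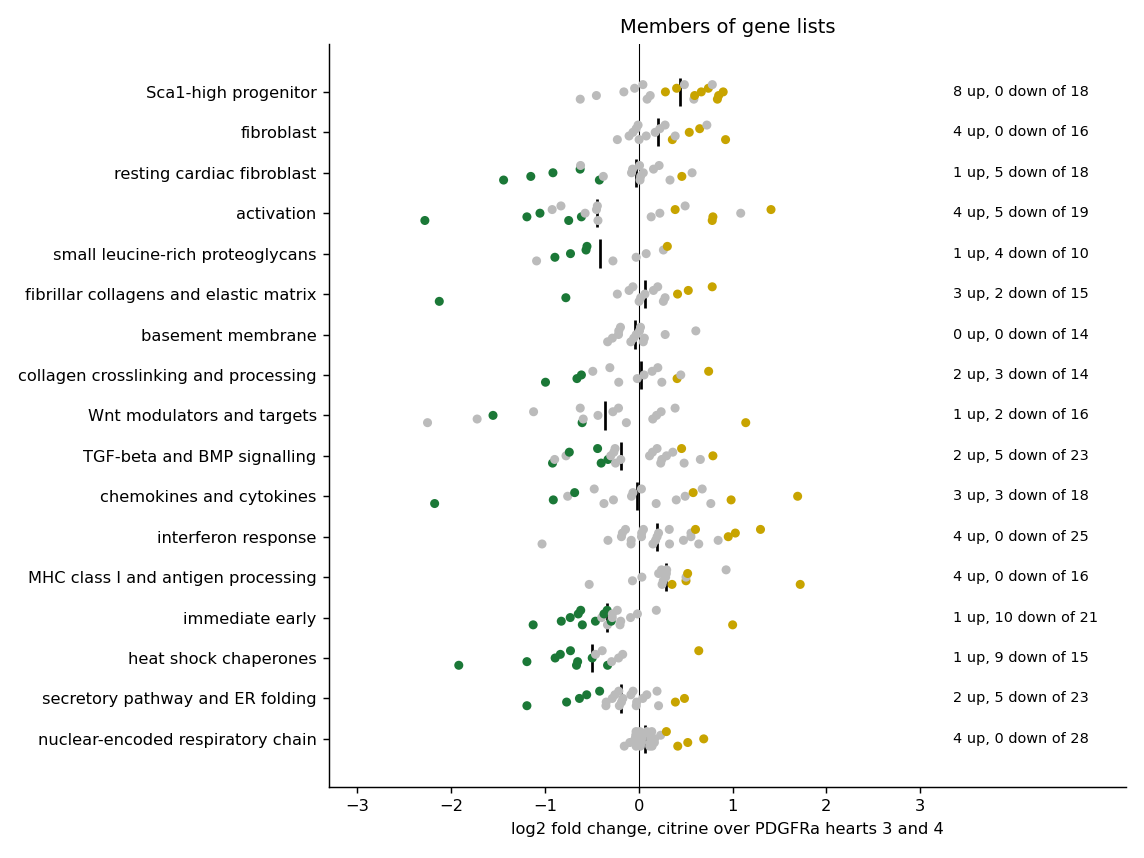
Log2 fold changes of the tested members of 17 gene lists, with called genes in gold (higher in the citrine hearts) or green (lower), others in grey, and black bars at list medians; genes used to choose the cells and hearts are left out. Sca1-high progenitor genes lie mostly to the right (8 of 18 called higher), and heat shock and immediate early genes mostly to the left (9 of 15 and 10 of 21 called lower).

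Many heat shock chaperones and immediate early genes passed as lower in the citrine hearts, and others did not pass. Of 15 heat shock chaperones 9 were lower and 1, Hspb8, higher, with a median of -0.50, beside 11.5% of all tested genes called lower, and 5 were not called. Hsph1 was at 45.9, 36.1 and 41.8 CPM against 87.5 and 217, with 72.3 and 108 in PDGFRa hearts 1 and 2 (-1.92 ± 0.28, adjusted p = 0.0025). With 1 heart left out, the log2 fold change of Hsph1 ran from -2.41 to -1.11. Hspa5, the endoplasmic reticulum chaperone BiP, was at 1178, 798 and 930 CPM against 1769 and 2657, with 2344 and 1569 in the others (-1.19 ± 0.18, adjusted p = 0.0030). The citrine hearts were below all 4 PDGFRa hearts for 935 of all 1361 lower calls, and for 8 of the 9 chaperones. Of the 15 list members 6 share 3′ words with other genes. Without PDGFRa heart 4, 4 were lower. Of 21 immediate early genes, which cells switch on within minutes of a stimulus, 10 were lower, 10 were not called and Ier3 was higher, with a median of -0.33. Fosb, a subunit of the AP-1 factor, was at 269, 378 and 286 CPM against 698 and 655, with 1081 and 1031 in PDGFRa hearts 1 and 2 (-1.13 ± 0.13, adjusted p = 0.00084). Zfp36, which destabilises cytokine RNAs, was at 456, 522 and 376 CPM against 882 and 714, with 1185 and 1323 in PDGFRa hearts 1 and 2 (-0.83 ± 0.14). Ier3 was at 243, 262 and 283 CPM against 150 and 114, and at 1004 and 788 in PDGFRa hearts 1 and 2. Without PDGFRa heart 4, 4 immediate early genes were lower, and without heart 3, 3 were.

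Of 23 genes of the secretory pathway 5 were lower, led by Hspa5 and the transcription factor Creb3l1 (-0.77), and Spcs1 (0.49) and Ssr2 (0.39) were higher. Leaving out PDGFRa heart 4 left 2 lower and none higher. The metallothionein Mt1 was lower (1488, 1138 and 1195 CPM against 1799 and 1880, with 2499 and 2831 in PDGFRa hearts 1 and 2; -0.53). The antioxidant enzymes Gpx1 (0.53), Cat (0.45) and Prdx6 (0.27) were higher among 16 such genes, and Txnrd1 was lower (-0.37). None of these 16, Mt1 included, was called without PDGFRa heart 4. Of 28 nuclear-encoded genes of the respiratory chain 4 were higher (Uqcrc1 0.69, Sdhb 0.52, Ndufv1 0.42 and Cox5b 0.29) and none was lower, with a median of 0.06; without PDGFRa heart 4, 2 were higher. Of 15 glycolysis genes Eno1, Gapdh and Aldoa were higher, but 8 of the 15 share 3′ words with other genes, Gapdh at 52.9% and Eno1 at 54.4%. Pgk1, at 159 UMIs in the citrine hearts and 2 in the pair, could enter the test only through the citrine hearts and is not counted.

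Genes of class I antigen presentation and the interferon response included a few higher calls and no lower ones. Of 16 MHC class I and processing genes 4 were higher (Psme2, Psmb8, Tapbp and Psme1), with a median of 0.29. Only Psme2 was called without PDGFRa heart 4. Psme2, a proteasome activator subunit, was at 86.7, 77.8 and 86.2 CPM against 27.4 and 23.7, with 15.7 and 16.6 in PDGFRa hearts 1 and 2 (1.72 ± 0.12, adjusted p = 4.4e-05), but shares 45.1% of its 3′ words. The cells were hashed with antibodies to MHC class I, so assignment itself reads this protein. The class I chains H2-D1 (1005 against 850 CPM) and H2-K1 (690 against 574) were higher in assigned than in unassigned citrine cells. Their partner B2m was lower there (1053 against 1086). In the PDGFRa library, all hearts together, each was higher in assigned cells. H2-D1 was at 770 against 662 CPM, H2-K1 at 638 against 476 and B2m at 895 against 725. The part of assignment in the differences between the groups was not tested. Of 25 interferon genes 4 were higher (Irf7 1.30, Usp18 1.03, Ifit3 0.95 and Xaf1 0.60), with a median of 0.19. Irf7, the master regulator of the interferon response, was at 49.5, 26.2 and 49.2 CPM against 19.4 and 14.8, and at 29.2 and 25.2 in PDGFRa hearts 1 and 2, which overlapped citrine heart 2. Without PDGFRa heart 4 none of the 25 was called higher and 1 was called lower.

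Secreted signals differed gene by gene. Of 18 chemokines and cytokines 3 were lower and 3 higher, and without PDGFRa heart 4, 2 and none. Ccl11, the eosinophil attractant eotaxin, was at 67.2, 45.7 and 29.1 CPM against 232 and 188, and at 53.1 and 87.5 in PDGFRa hearts 1 and 2, which overlapped the citrine hearts (-2.18 ± 0.26, adjusted p = 0.0011). Cxcl1, a neutrophil attractant, was at 610, 644 and 439 CPM against 1319 and 796, and at 4290 and 3164 in PDGFRa hearts 1 and 2; without PDGFRa heart 3 it did not pass (-0.50, adjusted p = 0.10). Cx3cl1 was also lower (-0.68). Ccl19 (1.69, at 11.8 CPM or less in every heart), Ccl2 (0.98) and Cxcl16 (0.58) were higher, and Ccl2, the monocyte attractant, overlapped between the groups and lost its call without PDGFRa heart 4 (0.61, adjusted p = 0.31).

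Of 23 genes of TGF-beta and BMP signalling 5 were lower, among them Id2 and Bmp4, and 2 higher (Tgfb1 and Fstl1, the latter at log2 -0.29 with all 4 PDGFRa hearts). With PDGFRa heart 4 left out, 1 was lower and 1 higher, and Bmp4 was not called. Id2, a target of BMP signals, was at 109, 117 and 82.1 CPM against 214 and 175, with 226 and 236 in PDGFRa hearts 1 and 2 (-0.92 ± 0.15, adjusted p = 0.0037). Of 16 Wnt genes Sfrp1, a secreted inhibitor (-0.60), and Wnt4 (-1.55) were lower and the Wnt agonist Rspo1 (1.14) was higher, at 16.3, 10.5 and 14.0 CPM against 4.52 and 6.88, with 2.64 and 3.65 in PDGFRa hearts 1 and 2. Rspo1 lost its call without PDGFRa heart 3 or 4. Of 9 Hedgehog genes Gli1, the pathway's target and effector, was higher (1.26, adjusted p = 0.047) at 3.93, 7.78 and 5.92 CPM against 3.73 and 1.85, with 0.944 and 1.42 in PDGFRa hearts 1 and 2, and Gas1, a co-receptor, was lower (-0.49). Gli1 lost its call without citrine heart 2, citrine heart 3 or PDGFRa heart 4 (log2 0.71 to 1.71, adjusted p up to 0.41), and without PDGFRa heart 4 none of the 9 was called. Of 24 growth factor genes Igfbp4 was higher (0.44) and Ptn, Angpt1 (-0.74) and Gas6 (-0.36) lower; Igfbp4 lost its call without PDGFRa heart 4.

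Among 26 transcription factors of cardiac mesenchyme, Hic1 and Tcf21 were higher and Mef2c (-0.53), Klf4 (-0.37), Mef2a (-0.37) and Nfib (-0.35) lower. Klf4, Mef2a and Nfib each lost their call without citrine heart 1, citrine heart 3, PDGFRa heart 3 or PDGFRa heart 4, and without the last only Hic1 and Mef2c were called. Of 6 tested genes that earlier literature names as HIC1 targets, the repressed target Ackr3 was higher (552, 483 and 605 CPM against 304 and 347, with 98.2 and 118 in PDGFRa hearts 1 and 2; 0.74 ± 0.11). Ccnd1, cyclin D1, was lower, at 143, 152 and 186 CPM against 277 and 306, but PDGFRa hearts 1 and 2 were at 75.0 and 68.2 CPM (-0.87 ± 0.11, adjusted p = 0.0016). The 4 others were not called. Of 13 complement genes C1ra and Cd59a were higher and C7 lower. Of 14 adipogenic and lipid genes none was higher and Lpl, Fabp4 and Cebpb were lower, with Car3 not counted. Cd59a, Fabp4 and Cebpb lost their calls without PDGFRa heart 4, and Car3 was not called there either. Car3 was near the floor, at 0, 1 and 4 UMIs in the citrine hearts and 5 and 22 in the PDGFRa pair. It could enter the test only through the pair, so its call is not counted. PDGFRa hearts 1 and 2 gave 9 and 72 UMIs of Car3. Of 9 tested genes of Wif1 and cartilage matrix, Angptl7 was higher (0.62) and Prg4 lower (-0.70), and both lost their calls without PDGFRa heart 4 (adjusted p = 0.18 and 0.13).

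RNAs of proliferating cells were scarce. Mki67, a marker of proliferating cells, gave 11, 73 and 49 UMIs in the citrine hearts and none in 562 and 1095 cells of the PDGFRa pair, with 68 and 135 in PDGFRa hearts 1 and 2. Pooled over the citrine hearts it stood at 3.06 CPM, 11.5-fold above a floor of 3 UMIs over the pair (0.265 CPM). This ratio leaves out the spread between hearts, which ran from 1.49 to 3.46 CPM in the citrine hearts. Tk1 gave 16, 27 and 28 UMIs against none, and its pooled level was 6.16-fold above the same floor. Genes this low in the pair could enter the test only through the citrine hearts, so no count over the list is given. Among better expressed cell cycle genes, Cdkn1a, Ccnd1 and Cdkn1b (-0.52, a cell cycle inhibitor) were lower. Ccnd2 (cyclin D2) was higher, at 124, 125 and 121 CPM against 77.2 and 70.0 (0.75 ± 0.09, adjusted p = 0.0011). The share of thinned cells with at least 3 RNAs of the cell cycle list was 9.48%, 10.2% and 10.7% in the citrine hearts and 13.6% and 18.8% in the PDGFRa pair, with 10.7% and 12.1% in PDGFRa hearts 1 and 2. That list includes Ccnd1 and the inhibitors Cdkn1a and Cdkn1b, all higher in the pair than in the citrine hearts. The share is therefore not one of proliferating cells. Ccnd2 stood at 98.7 and 93.0 CPM in PDGFRa hearts 1 and 2, below the citrine hearts.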

How the data were processed

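UMI counts per gene and cell were used as the authors deposited them: whole numbers from Cell Ranger (version 3.0.2 per the file headers) on a modified mm10 genome, with Seurat 2.1 also named in the submitters' processing notes. How reads matching several genes or strands were counted is not given in the sources used here. Cells were filtered and assigned to hearts by the rules stated in the report, no doublet caller was run, and counts were summed per heart. The 5 sums were tested with edgeR 4.0.16 (R 4.3.3; quasi-likelihood test, TMM factors, filterByExpr) and adjusted by Benjamini-Hochberg over all 11863 genes tested. SEs are the log2 fold change divided by the square root of F. No paper or label says which hashtag marked which PDGFRa heart, and p values measure the spread between these hearts. In simulated counts for these 11863 genes, 10%, 38% and 78% of genes changed 1.25-fold, 1.5-fold and 2-fold were called. Of unchanged genes 0.12% were called. Only 50 genes were changed at each size, far fewer than passed in the data, so these rates need not hold there.

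Named genes were the 4 markers, the 12 largest called differences in each direction among genes at 20 CPM or more whose citrine hearts lay apart from all 4 PDGFRa hearts (reporters, mitochondrial, ribosomal protein, sex-linked and predicted genes left out), and up to 2 called members per list and direction; other list members named in counts, the chromosome 9 neighbours and the clock genes were named after their values were seen. The hearts, lists and members were chosen with earlier results of these data known. Alternatives were DESeq2 1.42.0, other factors, filters, hearts and thinning. Sums, shares and figures were made with pandas 2.3.3, scipy 1.17.1 and matplotlib 3.10.9.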

Additional observations from a re-analysis of the deposited data

Results flagged for a closer look

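A feature for tdTomato, the reporter of the libraries not compared here, had UMIs in the citrine hearts although their label names no tdTomato allele: 51 in heart 1, 5 in heart 2 and 78 in heart 3, against 0 in both hearts of the PDGFRa pair. Hearts 1 and 3 are those in which the chromosome 9 genes were raised. The cause was not tested.

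Among 97 named genes, 4 had a PDGFRa heart far from the other 3 relative to the spread of the 4 hearts. Chance alone gives about 1 in 20, so 4 of 97 is no more than chance gives. Hspa4l was at 79.6 CPM in PDGFRa heart 4, with the next heart at 28.2. Cat, which encodes catalase, was at 35.4 CPM in PDGFRa heart 3, with the next at 31.2. Uqcrc1, a subunit of respiratory complex III, was at 62.5 CPM in PDGFRa heart 3, with the next at 56.2. Msln, the mesothelial gene mesothelin, was at 0.630 CPM in PDGFRa heart 1, with the next at 0.0979.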

How the results depend on the processing

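When 1 heart was left out, genes called ranged from 715 to 2176. For the citrine hearts against PDGFRa low-Postn hearts, genes called with at least a 2-fold difference ranged from 212 to 461; both lowest counts came without PDGFRa heart 4, and 1407 were called without citrine heart 3. A hashtag share of at least 95% gave 770 calls, and all 4 PDGFRa hearts gave 636 genes at least 2-fold apart, with 56.1% of them higher against 70.5%. DESeq2 called 1961 genes. With all 4 PDGFRa hearts the sign turned for Acta2 (-0.80), Adamts2 (-0.44), Bgn (-0.15), Fstl1 (-0.29), Ier3 (-1.13), Mfap2 (-0.85), Mfap4 (-0.82) and Ssr2 (-0.027), and with no pericyte filter for Fabp4 (0.83), none of them past the threshold. The cause was not tested. Of 87 called named genes 30 kept call and direction in every alternative run. Share differences, citrine minus PDGFRa pair in percentage points, were 36.8 for Hic1, 15.5 for Pdgfra, 16.1 for Tcf21 and 23.1 for Ly6a at 2000 UMIs, 22.2, 9.88, 14.3 and 17.9 at 1000, and 60.3, 18.6, 10.4 and 22.6 unthinned. With at least 2 or at least 4 markers they were 3.83 and 14.2 for Sca1-high genes, 0.760 and 7.23 for interferon genes and -10.6 and -1.41 for cell cycle genes, and 0.139 with at least 2 for Wif1 and cartilage matrix genes, against -1.14 with 3. No paired analysis was possible because the labels give the hearts no replicate numbers, and hashtag numbers only name them.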

Other observations

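Within each citrine heart, cells with a Hic1 UMI were set beside cells without one for the genes with the largest differences between the groups. Over the 11 other genes with the largest positive differences, the median log2 difference between those cells was 0.16, 0.01 and -0.10 in citrine hearts 1, 2 and 3, and 3 genes were positive and 1 negative in all 3 hearts. In the undamaged tdTomato library, a single sample of 2392 cells, 5 of the 12 top positive genes and 7 of the 12 top negative genes were nearer to the citrine hearts than to the PDGFRa pair.

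Epicardial RNAs came mainly from 1 heart. Msln gave 83, 1 and 22 UMIs and Upk3b, a uroplakin of mesothelium, 103, 1 and 21 UMIs in citrine hearts 1, 2 and 3, against 0 for both genes in the PDGFRa pair. Citrine cells left without a heart differed from assigned ones over the 24 top genes by a median log2 difference of 0.12, from -0.83 for Ptn to 0.99 for Hp.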
